A study of Homo sapiens with 8 samples.

Results

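The genes described here encode mitochondrial carriers of solute carrier family 25 (SLC25). They were chosen by name alone, as the rows of the deposited count table whose symbol is SLC25A followed by a number, and 45 of the 30434 genes in the table met that rule. The study asked how FOXA1 acts on pathways related to HER2. RNA was sequenced from SKBR3, an established line from a human breast carcinoma with an amplified ERBB2 (HER2) locus. The control group comprised 4 libraries of SKBR3 cells labelled wild type (WT), and the other group 4 libraries of SKBR3 cells with a knockdown of FOXA1, a pioneer transcription factor of luminal breast cells. The knockdown line was a stable one made with lentiviruses carrying 3 short hairpin RNAs against FOXA1, and both groups grew in the same serum-containing medium. Whether the controls received a control vector, whether the line is 1 clone, and whether replicates came from separate cultures is not given in the sources used here, so the p-values measure only the spread between these libraries.

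Carriers of this family sit mostly in the inner mitochondrial membrane and exchange nucleotides, phosphate, carboxylates, amino acids, cofactors and metals between the matrix and the cytosol. They share a repeated fold around a central binding site that opens to one side of the membrane at a time. Through them ATP leaves the mitochondrion, citrate reaches the cytosol for lipid synthesis, acylcarnitines enter for fatty acid oxidation, and reducing equivalents cross in the malate-aspartate shuttle. Several carriers exist as paralogues with different tissue ranges.

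Library totals ran from 19087878 to 23786684 counts. FOXA1 had between 4071 and 4397 counts in control and between 83 and 92 in knockdown (log2 fold change -5.60, SE 0.063, edgeR adjusted p of 3.19e-30). The epithelial markers EPCAM, KRT8, KRT18, KRT19 and ERBB2 were present in every library, and on the log2 scale KRT19 and ERBB2 were lower in knockdown (-1.87 and -2.45), while EPCAM, KRT8 and KRT18 were higher (0.33, 0.31 and 0.58; edgeR adjusted p of at most 4.55e-06 for each of the 5). Of markers of other cell types, the leukocyte gene PTPRC had at most 3 counts, the fibroblast genes COL1A2 and DCN at most 3 and 1, and the endothelial gene PECAM1 at most 6 in any library. The summed leukocyte markers (3 of 4 in the table) ran from 5.08 to 6.72 CPM (counts scaled to 1000000 per library) in control and from 0.833 to 1.91 CPM in knockdown, of which CD68 made up 4.94 CPM in control and 0.589 CPM in knockdown on average. The 4 fibroblast markers summed to between 5.22 and 6.98 CPM against 6.21 to 7.66 CPM, and the 3 endothelial ones to between 20.7 and 22.1 CPM against 19.7 to 22.4 CPM. Single markers within these sums moved. PDGFRB rose from between 7 and 12 to between 43 and 81 counts (log2 fold change 2.78, edgeR adjusted p of 2.99e-11) and COL1A1 fell (-0.31, 0.0169). PDGFRB had enough counts for the test only through the knockdown libraries, so it could hardly be tested without being higher. VWF fell from between 105 and 130 to between 12 and 22 counts (-2.62, 3.31e-13), while CDH5, with between 331 and 478 counts in a library, rose (0.32, 6.28e-05). Their part in the results was not tested, and in bulk RNA fewer cells of a type cannot be told apart from less RNA per cell.

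Of the 45 carriers, 41 had enough counts to be tested. At an adjusted p under 0.05, the edgeR quasi-likelihood test called 34 carriers (82.9%), against 77.1% of all 16430 genes tested, so the share called was near that of the transcriptome. In knockdown 12 carriers were higher (29.3%, against 39.4% of all genes) and 22 were lower (53.7%, against 37.7%). The carriers' median log2 fold change was -0.131, beside 0.019 for all genes. The groups did not overlap for 32 of the 41 (78.0%), against 72.0% of all genes. Changes of 2-fold or more were seen in 8 carriers (19.5%), against 28.3% of all genes. SLC25A4, SLC25A18, SLC25A20, SLC25A27 and SLC25A42 were the 5 at least 2-fold higher, against 14.9% of all genes in that direction. SLC25A1, SLC25A30 and SLC25A34 were the 3 at least 2-fold lower, against 13.4%. Of these 8, SLC25A18, SLC25A20, SLC25A27 and SLC25A42 passed the filter on low counts only through the knockdown libraries, and SLC25A34 only through the control libraries, so a difference was needed for them to be tested at all. The other 36 tested carriers passed in both groups. SLC25A51 lay just outside the 2-fold limit, at a log2 fold change of -0.999, and SLC25A1 just inside it, at -1.11.

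**Figure D1:**
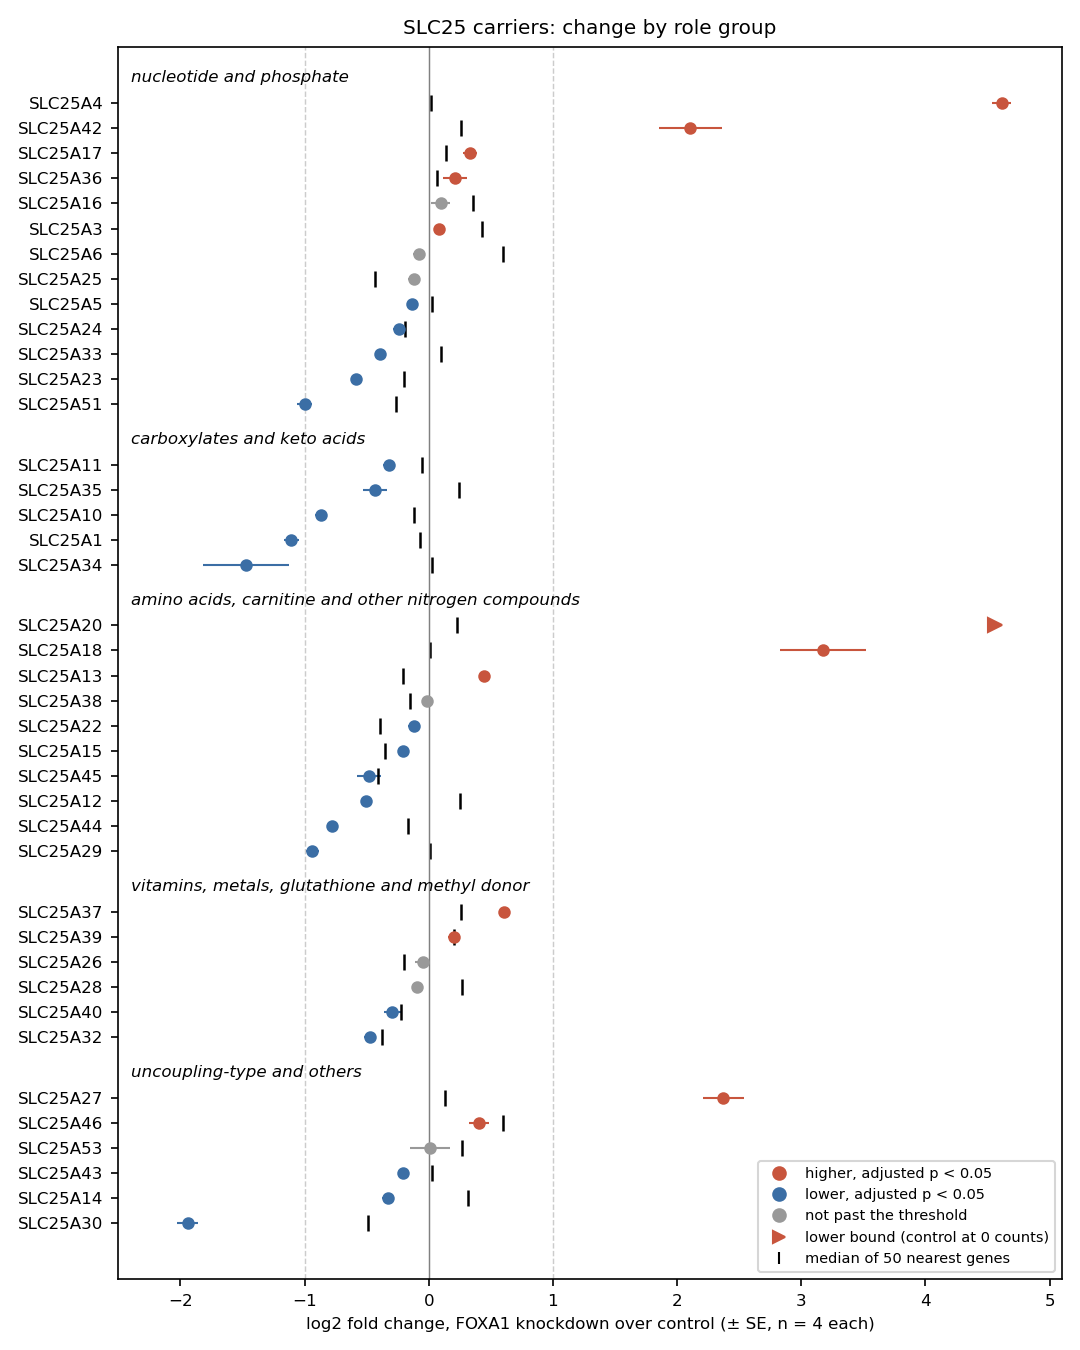
Log2 fold change (FOXA1 knockdown over control, x axis) of 40 of the 41 tested carriers, listed by role group, with bars for the SE (n = 4 each) and dashed lines at a 2-fold change. The black tick on each line is the median over the 50 nearest tested genes on the chromosome, and SLC25A20 is drawn at a lower bound because every control library had 0 counts. All 5 tested carriers of carboxylates and keto acids lie left of 0, and the 5 rises past 2-fold lie in 3 of the other groups.

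In the paragraphs that follow, group levels are means ± SD over 4 libraries in CPM, and log2 fold changes are knockdown over control. Neighbours are the 50 tested genes nearest on the chromosome. Their median was removed from each carrier in an alternative fit, since fold changes in these data shifted along chromosomes. The median entered that fit as a fixed value. Each adjusted p given with the shift removed therefore measures the spread between libraries only. It includes neither the uncertainty of the median nor the spread among the neighbours, and it does not test whether a gene departs from its region.

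Among the 14 tested nucleotide and phosphate carriers, 5 were higher, 6 lower and 3 not past the threshold (median log2 fold change -0.099). The share called was 78.6%, near the 77.1% of all genes. The widest change was in a single ADP/ATP exchanger. SLC25A4 (ANT1, the isoform typical of heart and skeletal muscle; ENSG00000151729.11, chromosome 4, 185143241 to 185150382, plus strand, GENCODE 29 on GRCh38) stood at 1.15, 1.09, 1.09 and 1.34 CPM in control replicates 1 to 4 and at 26.8, 28.6, 30.6 and 29.1 CPM in knockdown replicates 1 to 4. Every knockdown library was far above every control library (log2 fold change 4.61, SE 0.078, edgeR adjusted p of 1.35e-23), a 24.5-fold rise, while its neighbours had a median of 0.022.

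The other ADP/ATP carriers were far more abundant and changed little. SLC25A5 (ANT2, the isoform of proliferating cells) had 526, 532, 560.0 and 525 CPM in control and 491, 472, 502 and 492 CPM in knockdown. Its groups were separate (log2 fold change -0.13, SE 0.029, edgeR adjusted p of 0.000894), but the call was lost with upper-quartile scaling (-0.072, edgeR adjusted p of 0.0644) and with library size only (-0.047, 0.163). SLC25A6 (ANT3, expressed widely) had 653, 626, 710.1 and 630.3 CPM in control and 608, 606, 629 and 638 CPM in knockdown, and its groups overlapped (log2 fold change -0.079, SE 0.046, edgeR adjusted p of 0.0589). It passed the threshold without control replicate 2 (edgeR adjusted p of 0.0372), control replicate 4 (0.0237) or knockdown replicate 4 (0.0479). Its neighbours had a median of 0.60, and with that shift removed SLC25A6 was lower, at -0.68 (edgeR adjusted p of 1.48e-14).

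Per kilobase of exons, SLC25A4 made up 0.0366% ± 0.00461 of the summed CPM of these 3 genes in control and 0.96% ± 0.0423 in knockdown. SLC25A5 made up 54.1% ± 0.839 and 52.7% ± 0.536, and SLC25A6 45.8% ± 0.841 and 46.3% ± 0.52. The log2 ratio of SLC25A4 to SLC25A5 counts rose by 4.73 (SE 0.089). An exact two-sided permutation test over the libraries gave p = 0.0286, the smallest that 4 against 4 allows, or 0.0381 after Benjamini-Hochberg adjustment over 12 paralogue pairs. The ratio of SLC25A6 to SLC25A5 differed by 0.054 (SE 0.029, exact permutation p = 0.143, adjusted 0.156).

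SLC25A3, which brings phosphate into the matrix for ATP synthesis, had 422, 437, 434 and 429.7 CPM in control and 458, 448, 452 and 469 CPM in knockdown. The groups did not overlap, but the difference was small (log2 fold change 0.085, SE 0.018, edgeR adjusted p of 0.0161). It was not past the threshold without control replicate 1 (edgeR adjusted p of 0.0802), control replicate 4 (0.0548) or knockdown replicate 4 (0.0581). Its neighbours had a median of 0.43, and with that shift removed SLC25A3 was lower, at -0.34 (edgeR adjusted p of 2.62e-10).

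Of the coenzyme A and NAD+ carriers, SLC25A42 was called higher, SLC25A51 lower and SLC25A16 was not past the threshold. SLC25A42, a coenzyme A carrier (ENSG00000181035.14, chromosome 19, 19063999 to 19112888, plus strand), had 9, 6, 4 and 9 counts in control and 33, 36, 22 and 33 in knockdown. This is 0.316 ± 0.104 against 1.38 ± 0.181 CPM, with no overlap (log2 fold change 2.11, SE 0.26, edgeR adjusted p of 1.38e-07). SLC25A42 passed the filter on low counts only through the knockdown libraries. SLC25A16, a carrier linked to coenzyme A transport, was at 16.9 ± 1.52 and 18.1 ± 1.05 CPM (log2 fold change 0.097, SE 0.076, edgeR adjusted p of 0.206). It was called higher with upper-quartile scaling (0.16), library size only (0.18) and without control replicate 2 (0.16, edgeR adjusted p of 0.0471), and lower with the regional shift removed (-0.26, edgeR adjusted p of 0.00146). SLC25A51, which carries NAD+ into the matrix, was at 9.8, 11.4, 10.3 and 9.52 CPM in control and 5.101, 5.12, 5.296 and 5.04 CPM in knockdown, a fall of 0.999 on the log2 scale (SE 0.060, edgeR adjusted p of 2.13e-10). Its close copy SLC25A52 had at most 6 counts in a library, and the pseudogene SLC25A51P4, which had between 46 and 89 counts, may share reads with SLC25A51, so its value is uncertain. SLC25A51 also overlaps ENSG00000255872 over 122 bp of exons on the same strand. That gene had a mean of 40.88 counts over all libraries, beside 170.4 for SLC25A51.

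Among the calcium-regulated ATP-Mg/phosphate carriers, SLC25A23 fell from 86.3 ± 2.65 to 57.3 ± 2.65 CPM (log2 fold change -0.59, SE 0.040, edgeR adjusted p of 3.71e-12), and was at -0.39 with its neighbours' shift of -0.20 removed. SLC25A24 also fell (log2 fold change -0.24, SE 0.048, edgeR adjusted p of 3.98e-05), by about as much as its neighbours (-0.19), and was at -0.044 with that shift removed (edgeR adjusted p of 0.379). SLC25A25 stood at -0.12 (edgeR adjusted p of 0.0662). It was called lower without control replicate 1 (-0.15, edgeR adjusted p of 0.0351) or 4 (-0.14, 0.0499) and higher with the regional shift removed (0.32, 2.76e-05). SLC25A41 of the same group had at most 8 counts in a library and was not tested.

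Of the other nucleotide carriers, the pyrimidine nucleotide carrier SLC25A33 fell from 54.5 ± 2.29 to 41.6 ± 0.636 CPM (log2 fold change -0.39, SE 0.032, edgeR adjusted p of 2.18e-08). Its paralogue SLC25A36 was at 99.5 ± 11.3 and 115 ± 5.89 CPM, with overlap (log2 fold change 0.21, SE 0.094, edgeR adjusted p of 0.0371). The call for SLC25A36 was lost without knockdown replicate 1 (edgeR adjusted p of 0.0784), 2 (0.0971) or 3 (0.0716) and with the regional shift removed (0.134). SLC25A17, a carrier of the peroxisome, rose by 0.33 (SE 0.058, edgeR adjusted p of 3.24e-06), and by 0.20 with its neighbours' shift of 0.14 removed.

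Every tested carrier of carboxylates and keto acids was called lower in knockdown, 5 of 5 beside 37.7% of all genes, with a median log2 fold change of -0.87 beside 0.019. Among them, SLC25A34 passed the filter on low counts through the control libraries, so it could hardly be tested without being lower. SLC25A1, the citrate carrier that exports citrate for cytosolic acetyl-CoA (ENSG00000100075.10, chromosome 22, 19175575 to 19178830, minus strand), had 166, 163, 186 and 159.9 CPM in control and 75.5, 76.3, 76.6 and 84.95 CPM in knockdown. The highest knockdown library was well under the lowest control library, and 46.5% of the control level was left (log2 fold change -1.11, SE 0.063, edgeR adjusted p of 7.51e-15). SLC25A10, the dicarboxylate carrier that exchanges malate or succinate for phosphate, had 182, 173, 195 and 183 CPM in control and 100.4, 96.3, 98.95 and 106 CPM in knockdown, again with separate groups (log2 fold change -0.87, SE 0.045, edgeR adjusted p of 3.67e-16). SLC25A11, the oxoglutarate-malate carrier of the malate-aspartate shuttle, had 50.1, 49.9, 49.1 and 45.5 CPM in control and 38.9, 37.3, 41.7 and 37.9 CPM in knockdown. Its groups were separate but closer (log2 fold change -0.32, SE 0.049, edgeR adjusted p of 2.02e-06), and its exons overlap RNF167, a more highly counted gene, over 244 bp on the opposite strand. The medians of the neighbours were -0.074, -0.12 and -0.053 for these 3 carriers, and removing that shift left them at -1.03, -0.75 and -0.27.

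The other members of this group have less well known substrates. SLC25A34 (ENSG00000162461.8, chromosome 1, 15736405 to 15741396, plus strand) had 14, 22, 23 and 21 counts in control and 9, 11, 3 and 6 in knockdown (log2 fold change -1.47, SE 0.35, edgeR adjusted p of 0.000151). All 4 knockdown libraries were low, but each rests on few counts. SLC25A35 fell by 0.43 on the log2 scale (SE 0.095, edgeR adjusted p of 0.00129), and was at -0.68 with the regional shift removed. Its exons overlap RANGRF on the opposite strand over 1293 bp, where RANGRF had more counts, so its value is uncertain. The oxodicarboxylate carrier SLC25A21 had between 3 and 7 counts in control and between 1 and 4 in knockdown and was not tested.

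Of the 10 tested carriers of amino acids, carnitine and other nitrogen compounds, 3 were higher, 6 lower and 1 not past the threshold (median log2 fold change -0.162). The share called was 90.0%, beside 77.1% of all genes. The carnitine-acylcarnitine carrier SLC25A20 (ENSG00000178537.10, chromosome 3, 48856931 to 48898993, minus strand) brings fatty acids bound to carnitine into the matrix for oxidation. It had 0 counts in each of the 4 control libraries and 81, 87, 55 and 79 counts in knockdown replicates 1 to 4. The knockdown counts correspond to 3.44, 3.56, 2.801 and 3.65 CPM, while 3 counts, taken as the limit that a count of 0 allows, are at most 0.142 CPM in a control library. SLC25A20 was therefore at least 23.6-fold higher in knockdown (edgeR adjusted p of 3.02e-14), and counts of 0 do not show that it was absent from control cells. As it passed the filter on low counts only through the knockdown libraries, it could hardly be tested without being higher. It stayed a low transcript, at 1.698 CPM per kilobase of exons in knockdown beside 5.94 for SLC25A4.

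**Figure D2:**
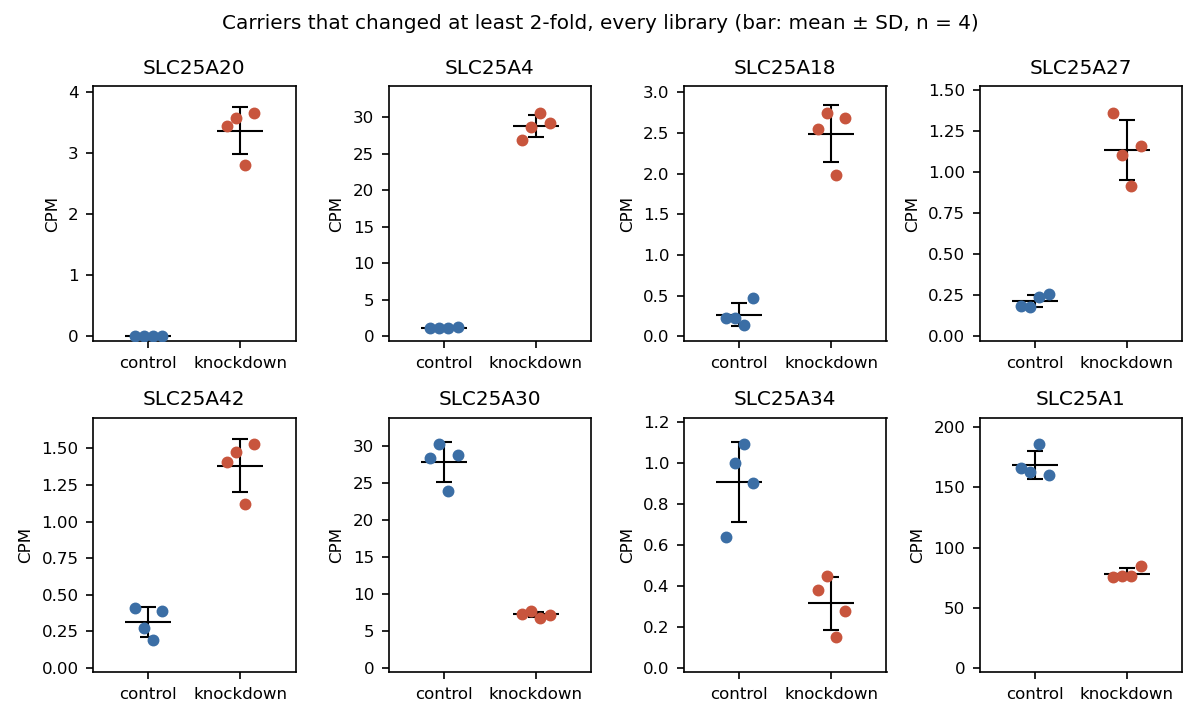
Level in CPM (y axis, a separate scale for each gene) of the 8 carriers that changed at least 2-fold, with 1 point for each library and bars for the mean ± SD (n = 4). In every panel the control and knockdown points are separate: SLC25A20 is at 0 in control and between 2.801 and 3.65 CPM in knockdown, and SLC25A1 is between 159.9 and 186 CPM in control and at most 84.95 CPM in knockdown.

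The aspartate-glutamate carriers, which drive the malate-aspartate shuttle, moved in opposite directions. SLC25A13 (citrin, the form of liver and many epithelia) had 136, 139.5, 139 and 138 CPM in control and 189, 184, 183 and 195 CPM in knockdown (log2 fold change 0.45, SE 0.023, edgeR adjusted p of 1.1e-11). SLC25A12 (aralar, the form of brain and muscle) had 44.97, 44.6, 40.7 and 43.1 CPM in control and 29.2, 31.5, 30.3 and 31.3 CPM in knockdown (log2 fold change -0.50, SE 0.041, edgeR adjusted p of 1.09e-09). In neither gene did the groups overlap. The neighbours had medians of -0.21 for SLC25A13 and 0.25 for SLC25A12, each against the gene's own direction, and with those removed the changes were 0.66 and -0.75. The log2 ratio of SLC25A12 to SLC25A13 fell by 0.95 (SE 0.049, exact two-sided permutation p = 0.0286, adjusted 0.0381). Per kilobase of exons, the share of SLC25A12 in this pair went from 18.4% ± 0.758 to 10.5% ± 0.424.

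SLC25A18, a glutamate carrier known from brain (ENSG00000182902.14, chromosome 22, 17563439 to 17590994, plus strand), had 5, 5, 3 and 11 counts in control and 60, 67, 39 and 58 in knockdown. All 4 knockdown libraries were above the controls (log2 fold change 3.18, SE 0.34, edgeR adjusted p of 5.35e-11), and only through them did SLC25A18 pass the filter on low counts. The other glutamate carrier, SLC25A22, was at 43.7 ± 2.43 CPM in control and 40.2 ± 1.68 CPM in knockdown, with overlap (log2 fold change -0.12, SE 0.050, edgeR adjusted p of 0.0342). Its call was lost with upper-quartile scaling (edgeR adjusted p of 0.29), library size only (0.536) and DESeq2 (0.0902). The same held without control replicate 1 (edgeR adjusted p of 0.124) or 3 (0.0584) and without knockdown replicate 1 (0.0721), 3 (0.0627) or 4 (0.116). SLC25A22 fell less than its neighbours (-0.39) and was higher with that shift removed (0.27, edgeR adjusted p of 3.18e-05). The share of SLC25A18 in this pair, per kilobase of exons, went from 0.61% ± 0.356 to 5.73% ± 0.78.

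SLC25A29 and SLC25A44 fell. SLC25A29, which carries arginine and lysine, had 32.2, 30.3, 33.6 and 32.4 CPM in control and 17.6, 16.4, 15.4 and 17.6 CPM in knockdown (log2 fold change -0.94, SE 0.055, edgeR adjusted p of 1.06e-13). SLC25A44, the carrier of branched-chain amino acids, had 81.7, 81.2, 82.6 and 79.6 CPM in control and 48.5, 46.99, 44.5 and 48.9 CPM in knockdown (log2 fold change -0.78, SE 0.032, edgeR adjusted p of 8.52e-15). Both were low in all 4 knockdown libraries. The ornithine carrier SLC25A15 fell by 0.20 on the log2 scale (edgeR adjusted p of 0.000405), less than its neighbours (-0.35), and was higher with that shift removed (0.15, 0.00625). Its paralogue SLC25A2 had at most 3 counts in any library. SLC25A38, a glycine carrier needed for haem synthesis, was at 51.6 ± 1.61 and 51 ± 1.67 CPM (log2 fold change -0.017, SE 0.033, edgeR adjusted p of 0.729), beside neighbours at -0.15, and was called higher with that shift removed (0.13, 0.0103). SLC25A45 fell by 0.48 (SE 0.093, edgeR adjusted p of 0.000163) beside neighbours at -0.41, and was at -0.074 without that shift (edgeR adjusted p of 0.524).

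No carrier of metals, vitamins, glutathione or the methyl donor changed by 2-fold. Of the 6 tested, 2 were higher, 2 lower and 2 not past the threshold (median log2 fold change -0.074). The share called was 66.7%, beside 77.1% of all genes. SLC25A37 (mitoferrin-1, which imports iron) had 74.4, 79.3, 78.8 and 78.3 CPM in control and 115, 121, 115 and 123 CPM in knockdown (log2 fold change 0.61, SE 0.034, edgeR adjusted p of 3.09e-13), and was still higher, at 0.35, with its neighbours' shift of 0.26 removed. Its paralogue SLC25A28 (mitoferrin-2) was at 13.97 ± 0.66 and 13.1 ± 0.273 CPM (log2 fold change -0.097, SE 0.037, edgeR adjusted p of 0.185), and was called lower with the regional shift removed (-0.36, edgeR adjusted p of 2.63e-05). The log2 ratio of SLC25A28 to SLC25A37 fell by 0.70 (SE 0.035, exact two-sided permutation p = 0.0286, adjusted 0.0381).

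The glutathione carrier SLC25A39 rose by 0.20 (SE 0.048, edgeR adjusted p of 8.16e-05) beside neighbours at 0.21. Its paralogue SLC25A40 fell by 0.29 (SE 0.068, edgeR adjusted p of 4.82e-05) beside neighbours at -0.22, and its exons overlap DBF4 on the opposite strand over 142 bp. Neither call held with those shifts removed (edgeR adjusted p of 0.984 and 0.253). The folate and flavin carrier SLC25A32 fell by 0.47 (SE 0.045, edgeR adjusted p of 1.61e-08). Without the shift of its neighbours it was at -0.093 (edgeR adjusted p of 0.122), and its exons overlap DCAF13 on the opposite strand over 406 bp. SLC25A26, which carries the methyl donor S-adenosylmethionine, was at 10.4 ± 0.734 and 10.1 ± 0.372 CPM (edgeR adjusted p of 0.565), with a log2 fold change of -0.050 that was 0.15 with the regional shift removed (edgeR adjusted p of 0.0849). The exons of SLC25A26 overlap LRIG1 on the opposite strand over 907 bp, where LRIG1 had more counts, so its value is uncertain.

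Among the 6 uncoupling-type and remaining carriers, 2 were higher, 3 lower and 1 not past the threshold (median log2 fold change -0.099). The share called was 83.3%, beside 77.1% of all genes. SLC25A27 (UCP4, known mainly from brain; ENSG00000153291.16, chromosome 6, 46652915 to 46678193, plus strand) had 4, 4, 5 and 6 counts in control and 32, 27, 18 and 25 in knockdown, with no overlap (log2 fold change 2.37, SE 0.16, edgeR adjusted p of 7.89e-08). This carrier passed the filter on low counts only through the knockdown libraries. SLC25A30 (KMCP1, known from kidney; ENSG00000174032.17, chromosome 13, 45393316 to 45418455, minus strand) had 28.4, 30.2, 23.98 and 28.7 CPM in control and 7.35, 7.66, 6.72 and 7.17 CPM in knockdown. Knockdown libraries kept 25.96% of the control level (log2 fold change -1.94, SE 0.082, edgeR adjusted p of 1.22e-17), and the fall was -1.45 with its neighbours' shift of -0.49 removed. The exons of SLC25A30 overlap TPT1-AS1 on the opposite strand over 98 bp. TPT1-AS1 had a mean of 138.38 counts over all libraries, beside 388.1 for SLC25A30. SLC25A14 (UCP5) fell by 0.33 (SE 0.047, edgeR adjusted p of 0.00177) and was at -0.64 with its neighbours' shift of 0.32 removed. The log2 ratio of SLC25A14 to SLC25A30 was higher in knockdown by 1.61 (SE 0.12, exact two-sided permutation p = 0.0286, adjusted 0.0381). SLC25A46, an outer membrane protein of the family, rose by 0.40 (SE 0.080, edgeR adjusted p of 2.7e-06), less than its neighbours (0.60), and was lower with that shift removed (-0.19, 0.0054). SLC25A43 fell by 0.21 (SE 0.029, edgeR adjusted p of 7.32e-05). SLC25A53, with between 15 and 27 counts in a library, was at 0.968 ± 0.153 and 0.968 ± 0.1603 CPM (edgeR adjusted p of 0.968), with a log2 fold change of 0.011 that was -0.26 with the regional shift removed (edgeR adjusted p of 0.306).

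The bases next to the start are shown for SLC25A4, SLC25A20 and SLC25A42, which rose, and for SLC25A1, which fell, so that the sequences can be compared. They are the parts of RefSeq promoter windows (GRCh38.p14) that lie before both the RefSeq and the GENCODE start, printed 5′ to 3′ on the gene's strand, at chr4:185143016-185143240 (plus), chr3:48898994-48899132 (minus), chr19:19063744-19063993 (plus) and chr22:19178831-19178986 (minus). Capitals mark the letters CCAAT and GGGCGG, or ATTGG and CCGCCC where they lie on the other strand.
SLC25A4: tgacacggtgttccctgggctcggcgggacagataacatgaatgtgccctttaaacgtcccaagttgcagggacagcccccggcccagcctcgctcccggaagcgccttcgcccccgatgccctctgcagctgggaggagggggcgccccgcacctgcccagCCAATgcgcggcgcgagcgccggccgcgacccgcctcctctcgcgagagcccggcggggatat
SLC25A20: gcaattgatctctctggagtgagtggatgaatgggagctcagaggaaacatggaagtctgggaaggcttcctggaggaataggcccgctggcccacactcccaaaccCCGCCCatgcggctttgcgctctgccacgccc
SLC25A42: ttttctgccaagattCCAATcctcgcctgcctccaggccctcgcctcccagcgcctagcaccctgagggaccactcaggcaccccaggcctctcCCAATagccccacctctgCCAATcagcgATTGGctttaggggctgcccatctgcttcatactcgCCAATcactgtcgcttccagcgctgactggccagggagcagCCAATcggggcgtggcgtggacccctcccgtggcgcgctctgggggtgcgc
SLC25A1: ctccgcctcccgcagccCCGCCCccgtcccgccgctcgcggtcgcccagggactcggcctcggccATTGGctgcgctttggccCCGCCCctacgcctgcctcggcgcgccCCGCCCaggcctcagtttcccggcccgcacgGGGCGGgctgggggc
These stretches of 225, 139, 250 and 156 bases held 70.7%, 59.7%, 65.2% and 81.4% G and C. SLC25A42 held CCAAT 6 times and SLC25A4 1 time, SLC25A20 held GGGCGG 1 time, and SLC25A1 held GGGCGG 4 times and CCAAT 1 time.

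Promoter windows were found for 37 of the 45 carriers, 46 windows in all. In the 250 bases before the start, 45.7% of these held CCAAT and 67.4% GGGCGG, against 32% and 42.7% of all 34961 windows, and TATAAA occurred in 8.7% against 10.7%. These 3 motifs were chosen after the sequences had been seen. Over the full 300 bases, both strands searched, the forkhead letters TGTTTAC were in 0 of the 46 windows and TATTTAC in 1, that of SLC25A38, against 3.42% and 2.67% of all windows. A palindromic NRF1 motif was in 0 of them, against 1.24% of all windows.

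Of the 14 paralogue pairs considered, 12 had both genes tested. The log2 ratio differed between the groups for 9 of them by the exact permutation test after adjustment over the pairs. Beside this, 77.1% of all single genes tested were called and 72.0% had groups that did not overlap. Ratios of other gene pairs were not examined, so 9 of 12 cannot be read as particular to paralogues. Each of the 9 had the smallest possible exact permutation p, 0.0286, and thus the same adjusted p, 0.0381. For a single pair these values show only that its ratios did not overlap between the groups. The 3 pairs that did not pass were SLC25A6/SLC25A5, SLC25A25/SLC25A24 (difference 0.12, SE 0.093, adjusted permutation p = 0.229) and SLC25A35/SLC25A34 (1.09, SE 0.41, adjusted permutation p = 0.0686). Of the 9, SLC25A18/SLC25A22 and SLC25A16/SLC25A42 each hold a gene that passed the filter on low counts only through the knockdown libraries. A difference was thus needed for these pairs to be used. SLC25A35/SLC25A34 likewise entered only through the control libraries. SLC25A39/SLC25A40 (0.49, SE 0.11) was not past the threshold without knockdown replicate 1, 2, 3 or 4, with adjusted permutation p of 0.0762, 0.0686, 0.0762 and 0.0762, although the difference stayed at 0.51, 0.51, 0.49 and 0.46. With 3 against 4 libraries there are 35 divisions, so the exact p before adjustment moves in steps of 0.0286. SLC25A25/SLC25A24 passed without control replicate 3 (0.206, adjusted permutation p = 0.0343). The ratios and shares rest on counts without the regional shift removed. With it removed, log2 fold changes of the single genes lay close for SLC25A39 and SLC25A40 (-0.001 and -0.072). They lay further apart than before for SLC25A6 and SLC25A5 (-0.68 and -0.16) and for SLC25A12 and SLC25A13 (-0.75 and 0.66). Per kilobase of exons, the share of SLC25A42 against SLC25A16 went from 3.13% ± 1.03 to 11.7% ± 1.91, and that of SLC25A28 against SLC25A37 from 45.5% ± 0.789 to 33.8% ± 0.836. The share of SLC25A33 against SLC25A36 went from 59.5% ± 3.47 to 49.1% ± 1.11. Which of the last pair was the more abundant in control depended on the length used, since with the longest transcript the shares of SLC25A33 were 45.3% ± 3.63 and 35.2% ± 1.02.

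**Figure D3:**
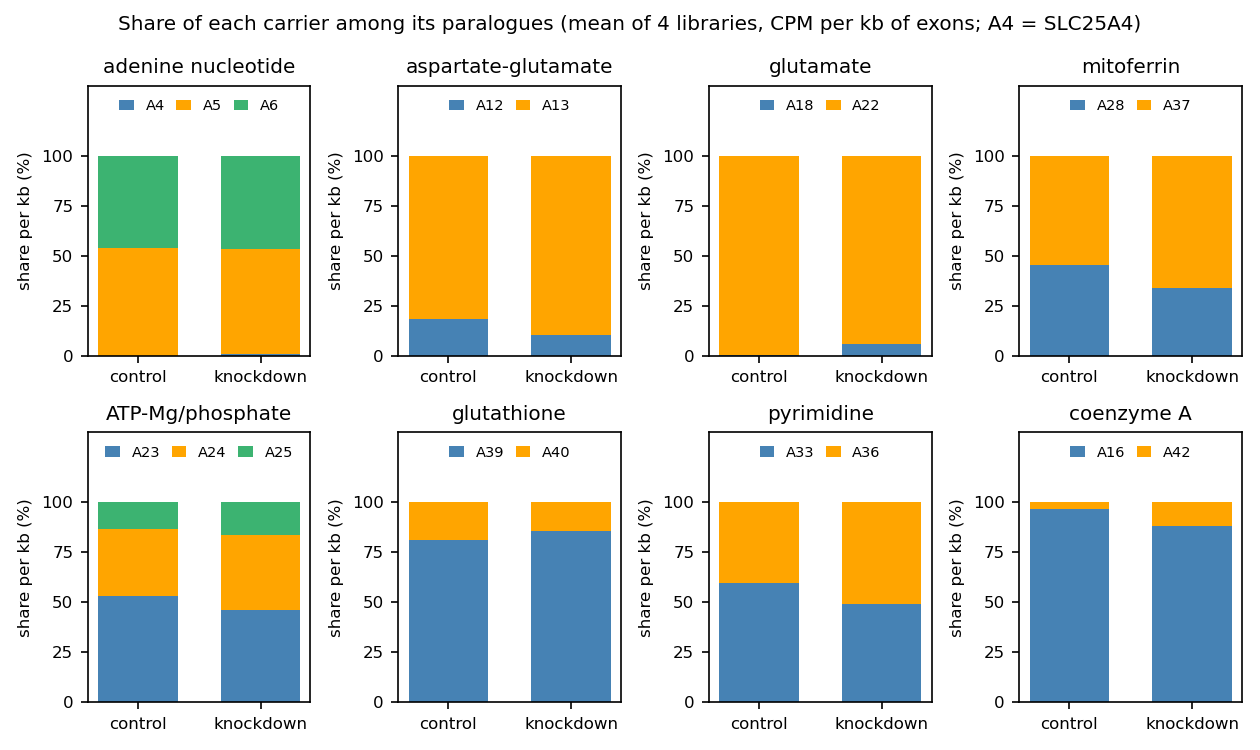
Share of each carrier among its paralogues in 8 substrate groups (y axis, percent of CPM per kilobase of exons, mean of 4 libraries, SD at most 3.47 percentage points). SLC25A13, SLC25A37, SLC25A42 and SLC25A18 take a larger share in knockdown, and the adenine nucleotide carriers remain almost wholly SLC25A5 and SLC25A6.

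Levels between carriers were compared per kilobase of merged exons. The order in control began with SLC25A5 at 357 ± 11.02, SLC25A6 at 303 ± 17.9, SLC25A1 at 80.5 ± 5.56, SLC25A10 at 69.99 ± 3.48, SLC25A3 at 48.4 ± 0.731, SLC25A13 at 37.2 ± 0.446 and SLC25A39 at 32.9 ± 1.82 CPM per kilobase. In knockdown SLC25A5 (326 ± 8.49) and SLC25A6 (286 ± 7.32) were followed by SLC25A3 (51.3 ± 0.992) and SLC25A13 (50.6 ± 1.48), then by SLC25A10 (38.3 ± 1.51), SLC25A39 (37.9 ± 1.39) and SLC25A1 (37.4 ± 2.11). The last 3 did not differ beyond their spread, nor did SLC25A3 and SLC25A13. SLC25A1 went from rank 3 to rank 7 of 45, also with the longest transcript as the length. SLC25A10, SLC25A13 and SLC25A39 changed places with that length. Both lengths may exceed that of the transcripts expressed, which was not measured, so the order is uncertain. In control SLC25A3 had more CPM than SLC25A1 (430.6 against 168.7). It ranked lower because it was divided by 8896 bp of exons, against 2096 bp for SLC25A1.

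SLC25A3, SLC25A5 and SLC25A6 together held 48.5 ± 0.752 percent of the family's CPM in control and 50.6 ± 0.443 percent in knockdown. The CPM of all 45 carriers summed to 3342 ± 63.0 in control and 3093 ± 43.6 in knockdown, and without those 3 genes to 1720 ± 9.66 and 1527 ± 17.6. Rises past 2-fold were found among the carriers that were low in control. Of the 7 tested carriers under 2 CPM in control, 5 rose, SLC25A34 fell and SLC25A53 was not past the threshold, and 5 of these 7 had passed the filter through 1 group only. Of the 9 carriers from 2 to under 30 CPM, the edgeR test called 5 lower and 0 higher, with SLC25A30 the single change past 2-fold. Of the 25 carriers at 30 CPM or more, 7 rose and 16 fell, SLC25A1 being the one past 2-fold. These level classes were set after the values had been seen. Over all levels 77.1% of all genes were called, but the shares of all genes within each class were not computed. Whether the pattern by level is particular to the carriers was therefore not tested.

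Genes that work with the carriers were taken from 8 lists. Of their 61 tested genes, 26 were higher (42.6%, against 39.4% of all genes) and 27 lower (44.3%, against 37.7%). In all, 86.9% were called, against 77.1% of all genes. The counts given for each single list stand beside these same shares of all genes, and no list was tested as a set. Among proteins of the same family with other symbols, 3 of 4 tested were lower (median log2 fold change -0.412). UCP2, an uncoupling protein that also moves small carboxylates, had 7576, 7368, 7468 and 7476 counts in control and 587, 532, 468 and 525 in knockdown. It was at 339.6 ± 14.3 and 23.7 ± 1.36 CPM, and 6.99% of the control level was left (log2 fold change -3.84, SE 0.052, edgeR adjusted p of 1.88e-28). The carrier homologues of the outer membrane MTCH1 and MTCH2 fell by 0.19 and 0.63 on the log2 scale, and were at -0.51 and -0.10 with their neighbours' shifts of 0.32 and -0.53 removed. UCP3 was not past the threshold (-0.11, edgeR adjusted p of 0.702), also with the regional shift removed (0.27, 0.368), and UCP1 had at most 3 counts in a library.

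The machinery that imports carriers into the membrane had 7 of 13 genes higher and 4 lower, 11 called of 13 beside 77.1% of all genes, with a median log2 fold change of 0.264. Of the 7, TOMM20 and TOMM70 were on the other side of 0 with the regional shift removed (-0.041 and -0.076, edgeR adjusted p of 0.234 and 0.0527). TOMM22, a receptor of the outer membrane pore, rose most (0.56, SE 0.060; 0.34 with the regional shift removed), and TIMM10B, a small protein of the intermembrane chaperone system, fell most (-0.89, SE 0.033). In the list of the pyruvate carrier and the porins, 3 of 5 genes were higher and 1 lower (median 0.258). VDAC1, a porin of the outer membrane, rose by 0.86 (SE 0.022) and MPC1, a subunit of the pyruvate carrier, fell by 0.36 (SE 0.040; -0.56 with the regional shift removed). VDAC1 has neighbours with a median of 1.10, and with that shift removed it was lower, at -0.24 (edgeR adjusted p of 2.14e-07).

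Enzymes of the malate-aspartate shuttle and of citrate use were 5 higher and 6 lower of 12 tested (median -0.109). ME1, the cytosolic malic enzyme, fell from 80.7 ± 2.71 to 11.1 ± 1.37 CPM (log2 fold change -2.85, SE 0.093), and ACO1, the cytosolic aconitase, rose from 1.48 ± 0.184 to 14.1 ± 1.06 CPM (3.25, SE 0.10). ACLY, which cleaves the citrate that SLC25A1 exports, was at -0.21 (SE 0.021), and with its neighbours' shift of -0.36 removed it was higher (0.14, edgeR adjusted p of 0.000222). Of the 6 genes in the list of carnitine shuttle enzymes, 4 were lower and 2 higher (median -0.314). CPT1C fell most (log2 fold change -1.80, SE 0.15), and CPT1B rose most, by 0.76 (SE 0.13). CPT1A, the main form in most epithelia, was at -0.27 (SE 0.030), and with its neighbours' shift of -0.44 removed it was higher (0.17, edgeR adjusted p of 8.61e-05). The rise of CRAT (0.20) was not past the threshold without control replicate 2 (edgeR adjusted p of 0.0697) or 4 (0.066) and with DESeq2 (adjusted p of 0.0553), and was 0.60 with the regional shift removed.

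Of the calcium uniporter genes, 3 of 5 tested were lower and 1 higher (median -0.362). MCUB, an inhibitory subunit, fell from 91.6 ± 2.69 to 15.3 ± 0.804 CPM (log2 fold change -2.58, SE 0.044). The pore subunit MCU rose by 0.095 (edgeR adjusted p of 0.0458), a call lost in 11 of 18 alternatives, over which the adjusted p lay between 0.000531 and 0.217, and with the regional shift removed it was at -0.087 (0.0643). Among the libraries left out in turn, it was lost without control replicate 1 (0.217), 2 (0.0842) or 4 (0.052) and knockdown replicate 1 (0.0772), 2 (0.0827) or 4 (0.073). In the iron-sulfur and haem list, which uses the iron that mitoferrins import, 4 of 9 genes were higher and 3 lower (median 0.143). FECH, which inserts iron into haem, rose from 57.3 ± 1.83 to 195 ± 4.55 CPM (log2 fold change 1.77, SE 0.028). Among the mitochondrial serine, glycine and folate enzymes, 4 of 7 were higher and 3 lower (median 0.116). AMT, of the glycine cleavage system, went from between 2 and 12 counts to between 59 and 85 (log2 fold change 3.63, SE 0.50). It passed the filter on low counts only through the knockdown libraries, so it could hardly be tested without being higher. GLDC of the same system fell by 0.62 (SE 0.029) and was at -0.11 with its neighbours' shift of -0.51 removed. Genes of these 8 lists named as having risen or fallen had an edgeR adjusted p of at most 0.0458.

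**Figure D4:**
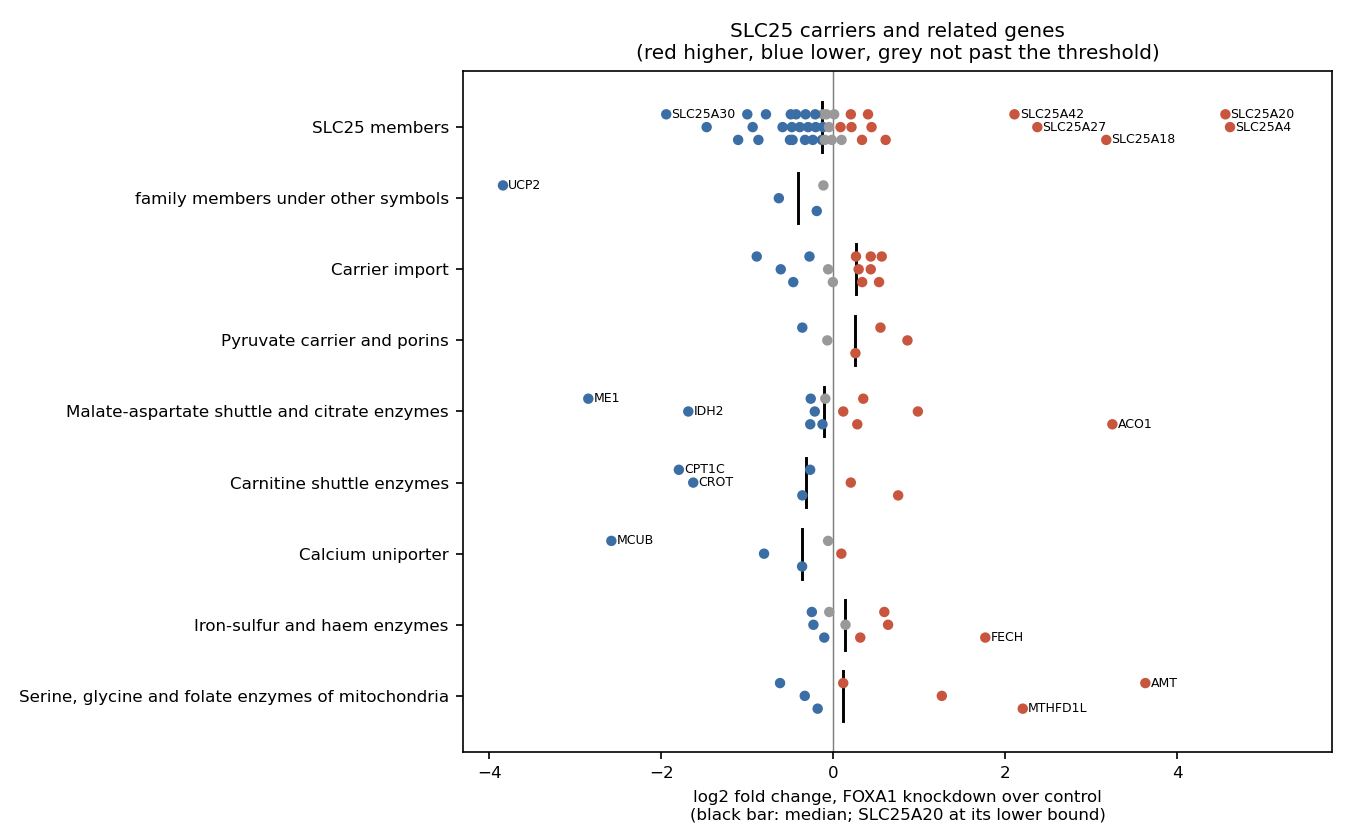
Log2 fold change (FOXA1 knockdown over control, x axis) of the tested SLC25 carriers and of 8 lists of related genes, with 1 point per gene and a black bar at each list's median. The widest changes are SLC25A4 and SLC25A20 (a lower bound) on the right and UCP2, ME1 and MCUB on the left, while the carrier import genes stay within 1 of 0 on the log2 scale.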

How the data were processed

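Per gene, the authors deposited whole read counts with Ensembl identifiers and symbols. RNA was extracted with Trizol and sequenced from an mRNA protocol as paired reads of 101 bases, per the labels' protocols. FastQC, Salmon 1.9, DESeq2 3.16 and build hg38 are named in the submitters' processing notes without roles, so the counts may be rounded Salmon estimates, which divide reads among similar genes by a model. Use of strand and the annotation release are not given in the sources used here.

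Groups came from sample titles. In R 4.3.3, edgeR 4.0.16 tested knockdown against control over all genes kept by filterByExpr (minimum of 10 counts, total of 15; 16430 kept, 14004 removed), with TMM scaling (factors 0.965 to 1.04), robust quasi-likelihood fits, Benjamini-Hochberg adjustment and a threshold of 0.05. The biological coefficient of variation was 4.56%. Fitted fold changes use a prior count of 0.125 and CPM the TMM-scaled totals. SEs come from log2 CPM of the replicates with 0.5 added to each count. Lower bounds use 3 counts as the floor, which covers counting error only. No pair of libraries agreed within sampling noise (chi-square over degrees of freedom of 2.1 or more). Paralogue ratios and shares were computed with Python 3.11.15, numpy 2.4.6 and pandas 2.3.3, and ratios were tested over the 70 divisions of the libraries.

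Positions, exon lengths and overlaps come from GENCODE 29 on GRCh38, matched on identifiers without version (96.5% of 30434, and all 45 carriers), and promoter windows from RefSeq on GRCh38.p14. The carriers, lists, pairs and role groups were chosen with earlier results of these data known. Values in every library are given for carriers called with at least a 2-fold change and separate groups, and for SLC25A1, SLC25A3, SLC25A4, SLC25A5, SLC25A6, SLC25A11, SLC25A12, SLC25A13 and SLC25A20. SLC25A10, SLC25A29, SLC25A37, SLC25A44 and SLC25A51 were added after their values were seen. From each related list the largest rise and fall among called genes are named, and UCP1, UCP3, MTCH1, MTCH2, TOMM20, TOMM70, ACLY, CPT1A and CRAT were likewise added afterwards. On simulated counts for 16430 genes, 87 of 97 genes changed by 1 on the log2 scale and 53 of 98 changed by 0.3 were called with the right sign, with 8 false calls among 148. Far fewer genes changed in the simulation than were called in the data (77.1%). Benjamini-Hochberg adjustment is stricter where few genes change, so these counts do not give the share of changes detected in the data. Alternatives were other scalings (RLE, upper-quartile, library size), other filters, DESeq2 1.42.0, limma 3.58.1 voom, no robust estimation, a replicate block, removal of the regional shift and leaving out each library. Proteins were not compared, and some genes that the rule for named genes covers are not reported here, although the counts include them.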

Additional observations from a re-analysis of the deposited data

Results flagged for a closer look

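Dixon's gap test at the 95% level was applied to the 4 libraries of each group for FOXA1, ERBB2 and the 41 tested carriers. Of 86 groups examined it marked 2, where chance gives about 4.3. SLC25A1 was high in knockdown replicate 4, at 84.95 CPM against 75.53 to 76.59 CPM in the others (gap over range 0.887). SLC25A15 was low in knockdown replicate 2, at 30.27 CPM against 32.56 CPM or more in the others (0.838).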

How the results depend on the processing

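Under 18 alternatives to the test, 23 of the 41 tested carriers kept direction and call in each alternative that tested them, among them all 8 with a change of at least 2-fold. The share of all genes that did so is not given here, so this count cannot be read as particular to the carriers. SLC25A26 and SLC25A53 were never past the threshold and lay on both sides of 0 (-0.081 to 0.149 and -0.26 to 0.115). The carriers called numbered between 8 and 13 higher and between 20 and 24 lower. With genes of a mean of at least 50 counts only, 35 carriers were tested, 1 was at least 2-fold higher and 2 at least 2-fold lower, since SLC25A18, SLC25A20, SLC25A27, SLC25A34, SLC25A42 and SLC25A53 were not tested. The carriers' median log2 fold change, -0.131, was -0.072 with upper-quartile scaling, -0.047 with library size only, -0.203 without a filter, -0.195 with a mean of at least 50 counts, -0.206 with DESeq2 and -0.194 with the regional shift removed. The first 2 of these scalings moved the median of all genes by 0.059 and 0.084. Leaving out each library gave -0.157 to -0.114 for the carriers' median, 11 to 13 carriers higher, 21 to 24 lower, 3 to 4 at least 2-fold lower, 8 to 10 paralogue pairs past the threshold and -5.641 to -5.551 for FOXA1.

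With the regional shift removed, 26 carriers kept their call, 6 lost it, 5 gained one and 4 turned. The matching shares of all genes are likewise not given here. Log2 fold changes on the other side of 0 were -0.34 for SLC25A3, 0.15 for SLC25A15, -0.26 for SLC25A16, 0.27 for SLC25A22, 0.32 for SLC25A25, 0.15 for SLC25A26, 0.13 for SLC25A38, -0.001 for SLC25A39, -0.19 for SLC25A46 and -0.26 for SLC25A53. In the related lists they were 0.14 for ACLY, 0.17 for CPT1A, -0.088 for MCU, 0.13 for MDH2, 0.23 for MPC2, 0.004 for MTHFD2L, 0.071 for TIMM9, -0.041 for TOMM20, -0.077 for TOMM70, 0.27 for UCP3 and -0.24 for VDAC1. The cause of the regional shifts was not tested. The groups share replicate numbers, but deviations of same-numbered libraries correlated between -0.0307 and 0.0563, so the numbers were not used as pairs. With a replicate block 12 carriers were higher and 22 lower, as without it. For carriers with few counts, among them SLC25A34 and SLC25A53, depth limits the test to large changes.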

Other observations

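Besides the 45 carriers, the table held 11 rows of SLC25 pseudogenes. SLC25A51P4 had up to 89 counts in a library, and no other pseudogene exceeded 24. SLC25A5P5, a pseudogene of SLC25A5, had 9, 6, 5 and 4 counts in control and 14, 24, 17 and 14 in knockdown. The antisense genes SLC25A25-AS1 (between 63 and 96 counts) and SLC25A5-AS1 (between 33 and 59) overlap exons of their partners, and without strand their reads cannot be told apart from those of the partner.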
